A study of Mus musculus with 26 samples.

Results

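The genes described here are 38 mouse genes of cell division and of retinal progenitor cells, followed through 26 single retinal amacrine cells. They were chosen by name, with earlier results of these data known. The named probe sets covered 37 of the 38 genes, out of 18193 genes in all; cyclin B1 (Ccnb1) had no named probe set and was not analysed here. Where a gene had several probe sets, the brightest of them on average (mean log2 signal over the 26 cells) stood for it. Signals below 200 were raised to 200 before the log2 (a log2 value of 7.64), and a gene counted as detected in any cell where its signal reached 1000.

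Amacrine cells, mostly inhibitory neurons whose processes lie in the inner retina, were profiled one at a time on Affymetrix Mouse Genome 430 2.0 arrays. A plasmid carrying GFP behind Ndrg4 or Synapsin regulatory sequence (pNdrg4::GFP or pSynapsin::GFP) was put into the newborn retina by electroporation in vivo or ex vivo, so a cell entered the study because it expressed GFP. GFP-positive cells were drawn up singly after papain digestion, and their cDNA was amplified for 35 PCR cycles from an oligo-dT primer. The 26 cells fell into 7 groups by age, reporter and culture. The group labelled E19 pSynapsin held 1 cell from retina cultured for 4 days. Its embryonic label was kept as given, although electroporation was described for newborn retina. The group labelled P4 pNdrg4 held 2 cells from retina cultured for 4 days. At P5 there were 4 pSynapsin cells and 5 pNdrg4 cells from retina cultured for 5 days, and 10 pNdrg4 cells for which no culture was stated. At P8 there were 2 pSynapsin cells and 2 pNdrg4 cells from retina cultured for 8 days. Cells are named below by age and the letter and number in their labels, so P5 cell B4, P4 cell B4 and P8 cell B4 are different cells. No animal, strain, retina or culture was named for any cell, so a group counts as 1 sample: an SD over cells describes their spread, and no test, standard error or p-value is given.

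A dividing cell moves through G1, S phase, G2 and mitosis as cyclins activate cyclin-dependent kinases. D cyclins with Cdk4 phosphorylate the retinoblastoma protein and free E2F factors, which switch on DNA replication genes, and the DREAM complex keeps late cell cycle genes off in resting cells. In the retina, dividing progenitors express Notch targets such as Hes1 and Hes5, and amacrine cells are born from them before birth and in the first days after it, leaving the cycle as inhibitors such as p27 (Cdkn1b) build up.

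Promoters are shown for 5 genes detected in P5 cell B4, the cell that held most of the set (the 4 G2 and mitosis genes detected there and the helicase gene Mcm6), and for Cdk4, the gene detected in the most cells. Of the 5, Mki67 and Cdk1 were detected in that cell alone, and the others were also detected elsewhere. They are shown because late cell cycle genes, replication genes and Cdk4 carried different short motifs there. The sequences are RefSeq promoter windows on build GRCm38.p6, each given 5′ to 3′ on the strand of its gene and covering the 200 bases before the annotated start. Capitals mark a match on either strand to TTTGAA (the CHR element of late cell cycle genes, TTCAAA in reverse), CCAAT (in reverse, ATTGG), TTTGGCGC (an E2F site, GCGCCAAA in reverse) or CACGTG (an E-box).
Mki67 (chr7:135716380-135716579, minus strand): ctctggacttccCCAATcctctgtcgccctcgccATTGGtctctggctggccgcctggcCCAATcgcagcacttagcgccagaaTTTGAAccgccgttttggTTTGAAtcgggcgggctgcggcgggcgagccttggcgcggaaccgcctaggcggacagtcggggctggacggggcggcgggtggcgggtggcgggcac
Top2a (chr11:99024190-99024389, minus strand): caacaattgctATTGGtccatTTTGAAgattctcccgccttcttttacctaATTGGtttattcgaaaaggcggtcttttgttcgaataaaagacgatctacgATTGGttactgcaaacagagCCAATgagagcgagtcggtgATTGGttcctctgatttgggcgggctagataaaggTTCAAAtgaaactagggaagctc
Cdk1 (chr10:69352913-69353112, minus strand): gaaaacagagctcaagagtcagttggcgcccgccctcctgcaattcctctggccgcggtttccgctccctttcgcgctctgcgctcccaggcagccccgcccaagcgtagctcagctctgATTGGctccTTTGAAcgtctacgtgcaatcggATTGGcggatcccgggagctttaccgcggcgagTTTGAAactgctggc
Cdc20 (chr4:118437344-118437543, minus strand): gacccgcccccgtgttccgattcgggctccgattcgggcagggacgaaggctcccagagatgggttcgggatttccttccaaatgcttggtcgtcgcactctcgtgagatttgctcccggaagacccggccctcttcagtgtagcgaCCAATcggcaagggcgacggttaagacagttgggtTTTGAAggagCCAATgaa
Mcm6 (chr1:128359706-128359905, minus strand): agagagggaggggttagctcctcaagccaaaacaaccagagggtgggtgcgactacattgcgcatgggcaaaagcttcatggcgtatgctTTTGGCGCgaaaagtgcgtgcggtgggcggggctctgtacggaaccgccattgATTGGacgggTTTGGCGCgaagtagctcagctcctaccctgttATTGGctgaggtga
Cdk4 (chr10:127063335-127063534, plus strand): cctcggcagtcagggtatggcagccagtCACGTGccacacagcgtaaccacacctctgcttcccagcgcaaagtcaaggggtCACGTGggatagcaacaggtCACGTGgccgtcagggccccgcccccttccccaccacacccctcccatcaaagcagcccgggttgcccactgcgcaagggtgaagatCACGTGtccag

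Over the whole 300-base windows (250 bases before to 50 bases after the start), 29 of the genes had at least 1 window, 32 windows in all. TTTGAA occurred in 8 of the 10 G2 and mitosis genes with a window, in 1 of 9 S phase genes (Mcm2) and in none of the other 10 genes with a window, beside 17.9% of all 32851 windows. CCAAT occurred in 9 of 10 G2 and mitosis genes and in 8 of 9 S phase genes, beside 37.4% of all windows. TTTGGCGC occurred in 3 genes (Mcm3, Mcm5 and Mcm6), beside 0.514% of all windows, and TTTCCCGC, a second E2F site, in 3 genes (Mcm3, Mcm7 and Cdk2), beside 1.07%. CACGTG occurred in 3 genes (Cdk4, Tyms and Gadd45g), beside 7.15% of all windows. A match of letters is a description of the sequence and not a measured binding site.

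The median gene of the set was detected in 2 of the 26 cells, beside 1 for all genes. At least 1 cell passed the signal of 1000 for 27 of the 37 genes (73.0%), beside 55.9% of all 18193 genes, and at least 3 cells passed it for 15 of the 37 (40.5%), beside 41.2% of all genes. The 10 genes detected in no cell (beside 44.1% of all genes) included the mitotic kinases Aurka, Aurkb and Plk1 and the G1/S pair Ccne1 and Cdk2. Without P5 cell B4, 24 genes were detected in at least 1 cell (64.9%, beside 55.2% of all genes). At least 3 cells then passed for 12 genes (32.4%, beside 40.4% of all genes). By role, the inhibitor, Rb and E2F genes (4 brakes on the cycle and E2f1, which drives replication genes) passed in at least 1 cell for 5 of 5, against 9 of 10 S phase genes, 8 of 12 G2 and mitosis genes, 3 of 6 G1 genes and 2 of 4 progenitor genes. In a cell amplified this strongly, absence of an mRNA and its loss before amplification cannot be told apart.

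**Figure D1:**
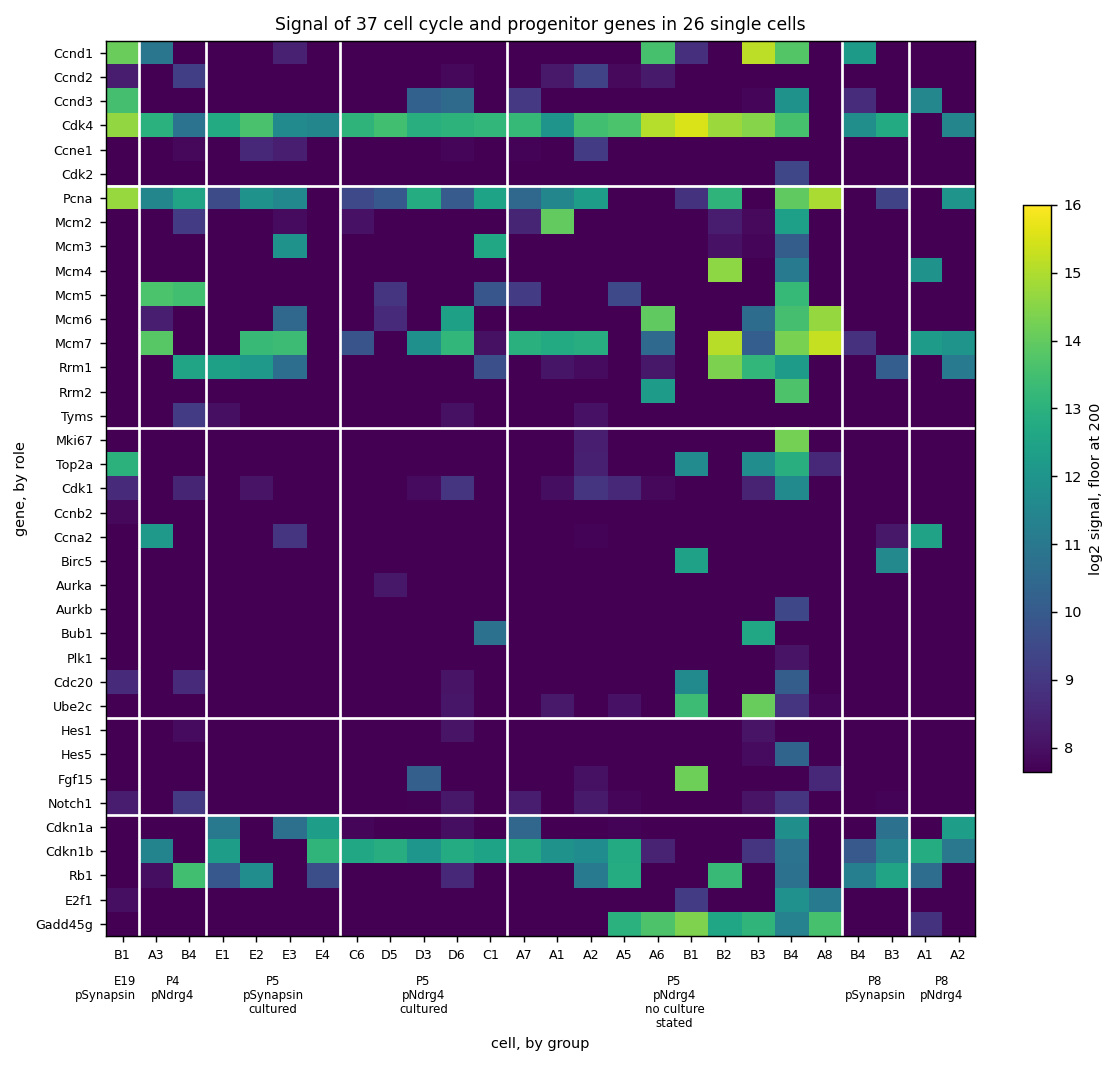
Log2 signal, with signals below 200 raised to 200, of the 37 measured cell cycle and progenitor genes (rows, by role) in the 26 cells (columns, by group). P5 cell B4 has 22 genes at a signal of 1000 or more, and the other 25 cells have 2 to 9.

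In the kinase step of G1, Cdk4, the partner of the D cyclins, was detected in 24 of the 26 cells, more than any other gene of the set. Its signal was 6913, 12438, 3145 and 2856 in the 4 P5 pSynapsin cells, and 8668, 11224, 7648, 8495 and 9248 in the 5 cultured P5 pNdrg4 cells. The 10 pNdrg4 cells of that age lacking a stated culture ran from 18.1 through a median of 12392 to 46830. The exceptions were P5 cell A8, at 18.1, and P8 pNdrg4 cell A1, at 1.80; the other P8 cells held 3530 and 6881 (pSynapsin) and 2804 (pNdrg4). The P4 cells held 8148 and 1820, and the E19 cell held 25430. Cdk4 detection therefore covered every group, whereas its cyclin partners did not.

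Cyclin D1 (Ccnd1) was detected in 6 cells: the E19 cell at 17625, P4 cell A3 at 1963, P5 cells A6, B3 and B4 at 12226, 36648 and 14004, and P8 pSynapsin cell B4 at 4647. Cyclin D3 (Ccnd3) was detected in 5 cells: the E19 cell at 11819, P5 cells D3, D6 and B4 at 1200, 1478 and 3813, and P8 pNdrg4 cell A1 at 2892. Cyclin D2 (Ccnd2) reached at most 657, in P5 cell A2. The E19 cell and P5 cell B4 held both Ccnd1 and Ccnd3. At least 1 of these D cyclins was thus detected in 9 of the 26 cells, beside a median of 17.9% of all genes detected per cell. Of the 9 cells, 8 also had Cdk4 detected. Cyclin E1 (Ccne1) and Cdk2, which act together at the entry to S phase, reached at most 556 (P5 cell A2) and 686 (P5 cell B4).

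Of the 26 cells, 17 had 2 or more of the 10 S phase genes detected. The median over the 26 cells was 2 of the 10, beside a median of 17.9% of all genes detected per cell. Pcna, the sliding clamp of DNA polymerase, was detected in 15 cells, with 750, 3843, 3014 and 23.2 in the P5 pSynapsin cells and 717, 975, 7260, 1053 and 5727 in the cultured P5 pNdrg4 cells. Among the 10 with no culture stated, Pcna ran from 25.5 through a median of 2126 to 31638. The P8 cells held 41.4 and 657 (pSynapsin) and 21.1 and 4006 (pNdrg4), the P4 cells 2886 and 5840, and the E19 cell 26586. Cells above and below the detection level occurred in each group of at least 4 cells.

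Mcm7, a subunit of the Mcm2 to Mcm7 helicase that opens DNA at replication origins, was also detected in 15 cells. Its signal was 15.0, 10043, 10617 and 88.7 in the P5 pSynapsin cells and 908, 80.0, 3702, 9338 and 261 in the cultured P5 pNdrg4 cells. Among the 10 with no culture stated, Mcm7 ran from 3.94 through a median of 7161 to 39828. Pcna and Mcm7 were both detected in 12 cells, each alone in 3, and neither in 8; this pair was chosen after its values were seen.

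The helicase has 6 different subunits, and 1 of the 26 cells, P5 cell B4, had all 6 detected. The next was P5 cell E3 with 3, followed by 8 cells with 2, 7 cells with 1 and 9 cells with 0. Mcm6 was detected in P5 cells A6 (15959), B3 (1534), B4 (11786), A8 (25927), D6 (5413) and E3 (1369). Mcm3, Mcm4 and Mcm5 were each detected in 3 cells: Mcm3 in P5 cells C1 (6262), B4 (1102) and E3 (3903), Mcm4 in P5 cells B2 (24262) and B4 (2193) and P8 cell A1 (3875), and Mcm5 in P4 cells A3 and B4 (12836 and 11362) and P5 cell B4 (9636). Mcm2 was detected in P5 cells A1 (16146) and B4 (5254). The probe sets used for Mcm3 to Mcm7 are of Affymetrix kinds (suffix s or x) whose probes can also match other transcripts. These signals may therefore not come from 1 gene alone. The same holds for Cdk4, Ccne1, Aurkb, Cdc20 and Hes5. P5 cell B4 was the shared member of all these sets, while the other cells holding a subunit changed from one subunit to the next.

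Ribonucleotide reductase makes the deoxyribonucleotides for replication. Its large subunit Rrm1 was detected in 9 cells, among them 3 of the 4 P5 pSynapsin cells (5367, 4581 and 1616) and none of the 5 cultured P5 pNdrg4 cells, where the highest value was 830. The 10 with no culture stated ran from 8.72 through a median of 258 to 20899. The small subunit Rrm2, which is made mainly in S phase, was detected in P5 cells A6 (4912) and B4 (13050). Thymidylate synthase (Tyms) was detected in no cell and reached 559 in P4 cell B4.

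Of the 12 genes of G2 and mitosis, none was detected in 18 of the 26 cells, and 3 cells had 2 or more. The median over the 26 cells was 0 of the 12, beside a median of 17.9% of all genes detected per cell. Mki67, the proliferation antigen Ki-67, was detected in P5 cell B4 alone, at 19686, and so was Cdk1, the mitotic kinase, at 3199. Topoisomerase II alpha (Top2a), which untangles replicated DNA, was detected in the E19 cell at 8359 and in P5 cells B1, B3 and B4 at 3276, 3387 and 7509. The remaining detected genes each appeared in 2 cells. Cyclin A2 (Ccna2) was in P4 cell A3 (4567) and P8 cell A1 (5577), survivin (Birc5) in P5 cell B1 (5445) and P8 pSynapsin cell B3 (3077), and the spindle checkpoint kinase Bub1 in P5 cells C1 (1769) and B3 (6243). The activator of the anaphase-promoting complex Cdc20 was in P5 cells B1 (3180) and B4 (1108), and its ubiquitin-conjugating enzyme Ube2c was in P5 cells B1 (10667) and B3 (16968). Cyclin B2 (Ccnb2), Aurka, Aurkb and Plk1 reached at most 228, 290, 695 and 271.

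Of the 4 progenitor genes, none was detected in 23 of the 26 cells, beside a median of 17.9% of all genes detected per cell. A list of 4 genes easily gives a count of 0 at such a share. Hes1 and Notch1 were detected in no cell and reached 274 and 537. Hes5, a Notch target that holds progenitors undifferentiated, passed the threshold in P5 cell B4 alone, at 1293. Fgf15, a growth factor gene expressed by retinal progenitors, was detected in P5 cell B1 at 18427 and in P5 cell D3 at 1167.

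Inhibitor, Rb and E2F genes differed from cell to cell. Gadd45g, a stress and differentiation gene that inhibits the Cdk1 and cyclin B complex, was detected in 7 cells, all of them in the P5 pNdrg4 group with no culture stated. In its 10 cells it ran from 53.9 through a median of 7061 to 21174, the 3 low cells being A7 (164), A1 (53.9) and A2 (100). The highest signal in the other 16 cells was 468, in P8 pNdrg4 cell A1.

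Cdkn1b, which encodes the Cdk inhibitor p27, was detected in 16 cells. It stood at 6360, 7304, 4183, 7076 and 5822 in the 5 cultured P5 pNdrg4 cells, against 3.18 to 6895 with a median of 1152 in the 10 with no culture stated. All 5 cultured cells and 5 of the 10 others were detected, and the groups overlapped. In the P5 pSynapsin cells it was 5054, 21.3, 99.4 and 8895, so high and low cells were both present there.

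Within the group that had no culture stated, Gadd45g and Cdkn1b were both detected in 2 cells (A5 and B4). Gadd45g alone was detected in 5, Cdkn1b alone in 3 (A7, A1 and A2) and neither in 0. A relation between the 2 genes was not tested. Each of these 10 cells thus held at least 1 of the pair, and so did 21 of all 26 cells. The pair was chosen after its values were seen. Cdkn1b has 2 probe sets, and no cell had both detected, whereas Gadd45g has 1. Nor did any cell have every probe set detected for Ccnd1, Ccnd3, Mcm3, Mcm5, Mcm6, Rrm1, Rrm2, Top2a, Ccna2, Bub1, Hes5, Rb1 or E2f1. With any probe set counted, Ccnd1 was detected in 8 cells instead of 6, and Ccna2 in 3 instead of 2.

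Cdkn1a, the p21 inhibitor induced by p53, was detected in 7 cells, with 2079, 108, 1689 and 5089 in the P5 pSynapsin cells. The 5 cultured P5 pNdrg4 cells lay between 83.3 and 248. Those lacking a stated culture ran from 27.2 through a median of 125 to 3565, and 2 of the 10 were detected. Cdkn1a was thus high in most pSynapsin cells at P5 and low in most pNdrg4 cells. Rb1, the retinoblastoma gene, was detected in 9 cells and reached 11244 in P4 cell B4. It read 977, 3411, 52.7 and 813 in the P5 pSynapsin cells, against 2.41 to 387 in the cultured P5 pNdrg4 cells. In the 10 with no culture stated Rb1 ran from 2.83 through a median of 64.4 to 10226, and 4 were detected. E2f1, an activating E2F factor that Rb1 restrains, was detected in P5 cells B4 (3729) and A8 (2157). Of the 26 cells, P5 cell B4 alone had all 5 of these genes detected, and no other had more than 3.

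**Figure D2:**
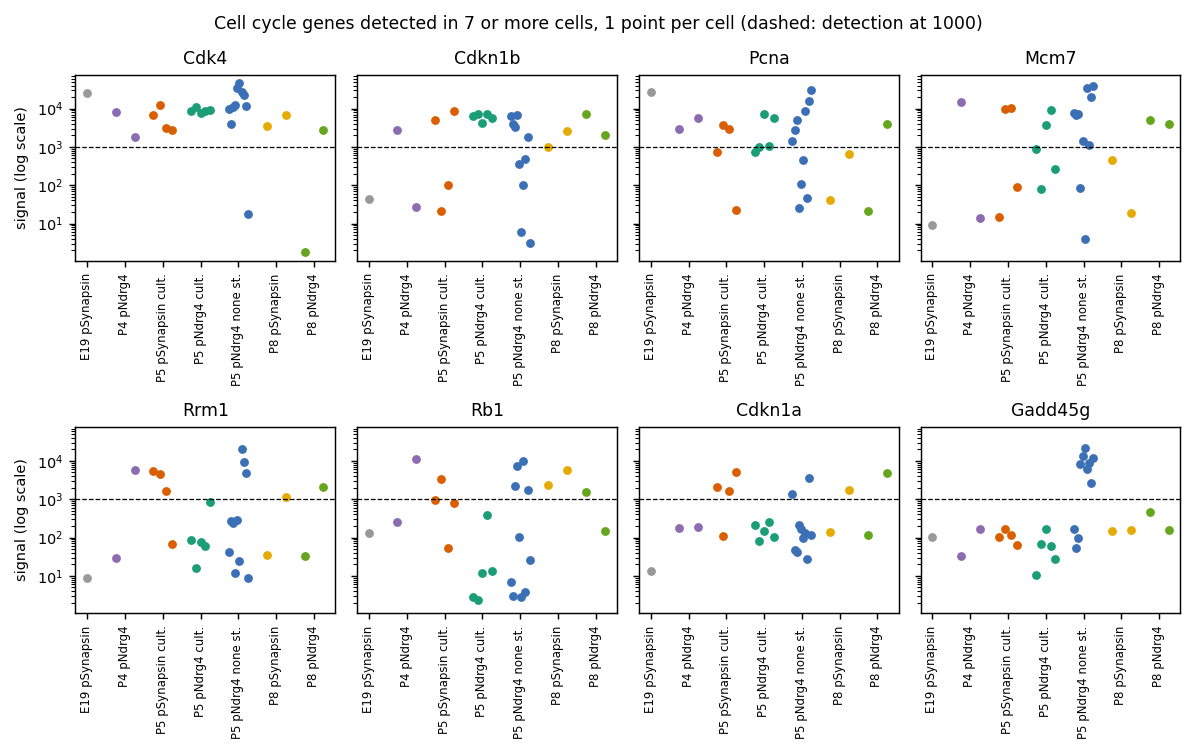
Signal (log axis, values below 1 drawn at 1) of the 8 genes detected in 7 or more cells, 1 point per cell by group (cult., cultured; none st., no culture stated), with a dashed line at the detection level of 1000. Gadd45g is above 1000 in 7 of the 10 P5 pNdrg4 cells lacking a stated culture and below it in the other 16 cells of the study.

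A single cell carried the set. P5 cell B4, a pNdrg4 cell with no culture stated, had 22 of the 37 genes detected (59.5%), beside 19.3% of all genes in the same cell, a ratio of 3.08. The other 25 cells had 2 to 9 of the 37 and a median of 5, and the next highest ratio was 2.16, in P5 cell B3 (9 genes, 24.3%, beside 11.2% of all genes). P5 cell B4 also had the most genes detected in its group, 3513, against 1909 to 2610 in the other 9. Mki67, Cdk1 and Hes5 were detected nowhere else. In all, 8 of the 37 genes had their highest value of the 26 cells there, Cdk2, Aurkb and Plk1 among them below the detection level.

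By role, P5 cell B4 held 3 of 6 G1 genes (Ccnd1, Ccnd3 and Cdk4), 9 of 10 S phase genes, 4 of 12 G2 and mitosis genes, 1 of 4 progenitor genes, and E2f1 with all 4 brakes. Its S phase signals were high, with Mcm7 at 20511, Pcna at 15956, Rrm2 at 13050 and Mcm6 at 11786, and Tyms at 52.3 was the gene that did not pass. Its mitotic signals divided: Mki67 (19686), Top2a (7509), Cdk1 (3199) and Cdc20 (1108) passed, while Aurkb (695), Ube2c (478), Plk1 (271), Bub1 (142), Aurka (44.3), the cyclins Ccnb2 (38.6) and Ccna2 (35.8), and Birc5 (2.03) did not. Its brakes were Cdkn1a (3565), Gadd45g (2616), Cdkn1b (1827) and Rb1 (1790), beside the activator E2f1 (3729). When each gene was represented by the median of its probe sets, the count in P5 cell B4 was 13, against at most 7 in any other cell.

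Another pair of cells in the same group held several mitotic genes. P5 cell B1 had 7 of the 37 genes (18.9%, beside 12.4% of all genes): Top2a, Birc5, Cdc20 and Ube2c from mitosis, none of the 10 S phase genes, and Cdk4, Fgf15 and Gadd45g. P5 cell B3 had Top2a, Bub1 and Ube2c from mitosis with Ccnd1, and 3 of the 10 S phase genes. Compared with these cells, P5 cell B4 had as many mitotic genes as P5 cell B1 and 1 more than P5 cell B3, and 9 S phase genes where they had 0 and 3.

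**Figure D3:**
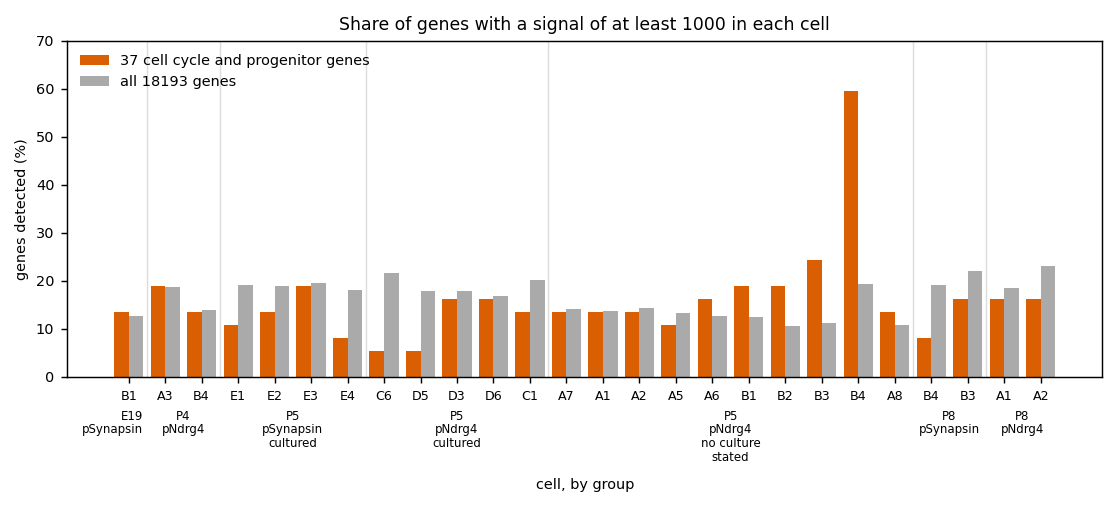
Percent of the 37 cell cycle and progenitor genes (orange bars) and of all 18193 genes (grey bars) detected in each of the 26 cells, by group. P5 cell B4 stands at 59.5% beside 19.3%, and in 18 of the 26 cells the share of the 37 is below that of all genes.

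Each of the other cells was likewise read against its own background, the share of all genes. In the P5 pSynapsin cells E1 to E4, 4, 5, 7 and 3 of the 37 genes were detected, beside 19.1%, 19%, 19.5% and 18.1% of all genes. In the cultured P5 pNdrg4 cells C6, D5, D3, D6 and C1, 2, 2, 6, 6 and 5 were detected, beside 21.6%, 17.9%, 17.9%, 16.8% and 20.1%. These cells held 5.41% to 18.9% of the 37 genes, so none of the 9 reached its background. The nearest were E3, D6 and D3, at ratios of 0.971, 0.968 and 0.907. In the P5 pNdrg4 cells A7, A1, A2, A5, A6, B2 and A8, 5, 5, 5, 4, 6, 7 and 5 were detected, beside 14.2%, 13.7%, 14.3%, 13.4%, 12.6%, 10.5% and 10.8% of all genes. P5 cells B3, B2 and B1 stood above their background by ratios of 2.16, 1.80 and 1.53. In the P8 cells, 3 and 6 (pSynapsin cells B4 and B3) and 6 and 6 (pNdrg4 cells A1 and A2) were detected, beside 19.1%, 22.0%, 18.6% and 23.0%. In the P4 cells A3 and B4, 7 and 5 were detected, beside 18.8% and 14.0%, and in the E19 cell 5, beside 12.7%.

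The share of the 37 genes was below that of all genes in 18 of the 26 cells and above it in 8. It was below in all 9 cultured P5 cells and all 4 P8 cells, and above in 6 of the 10 pNdrg4 cells lacking a stated culture. Some cells lay close to their background, such as P5 cells A1 and E3 below it (ratios of 0.983 and 0.971) and P4 cell A3 above it (1.01). The median count of the 37 genes was 5 in the cultured P5 pNdrg4 cells. It was also 5 in the group with no culture stated, without P5 cell B4. All genes were detected at 16.8% to 21.6% in the 5 cultured P5 pNdrg4 cells, and at 10.5% to 14.3% in that group without P5 cell B4, which at 19.3% lay within the cultured range. The part of this difference in the count of genes was not tested.

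Other genes of the same pathways also put P5 cell B4 first. These were 78 measured genes of a list of 82, grouped by textbook role, with none of the 38 among them. This list, too, was chosen with earlier results of these data known. P5 cell B4 had 32 of the 78 detected (41.0%), the next was P5 cell B1 with 16 (20.5%), and the other 25 cells had 1 to 16 with a median of 9. In replication P5 cell B4 held 12 of 19 and no other cell more than 5; in G2 and mitosis it held 11 of 28 and no other cell more than 4. In inhibitors and exit genes it held 4 of 14, fewer than the highest other cell (7), and in progenitor and Notch genes 5 of 17, against 6 in P5 cell B1.

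Several of these genes were detected in P5 cell B4 alone: Cdk6 (2244), another partner of D cyclins; Cdc25a (2832), a phosphatase that activates Cdks; the spindle and kinetochore genes Cenpf (3201), Kif23 (2120), Ttk (2606) and Ndc80 (5666); and the inhibitor Cdkn2c (1766). Its highest replication and progenitor signals included Uhrf1 (25396), which maintains DNA methylation, the origin licensing factor Cdt1 (13374), Sox2 (13185) and Lhx2 (12515). P5 cell B1 held higher Sox2 (34320) with Rax (7618), a transcription factor of early retinal progenitors, and lower Lhx2 (4136). Neurog2, a proneural factor, was not detected in P5 cell B4 but reached 22234 in P5 cell B2, 10756 in P5 cell A1, 9724 in P4 cell B4 and 5422 in P5 cell A8.

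**Figure D4:**
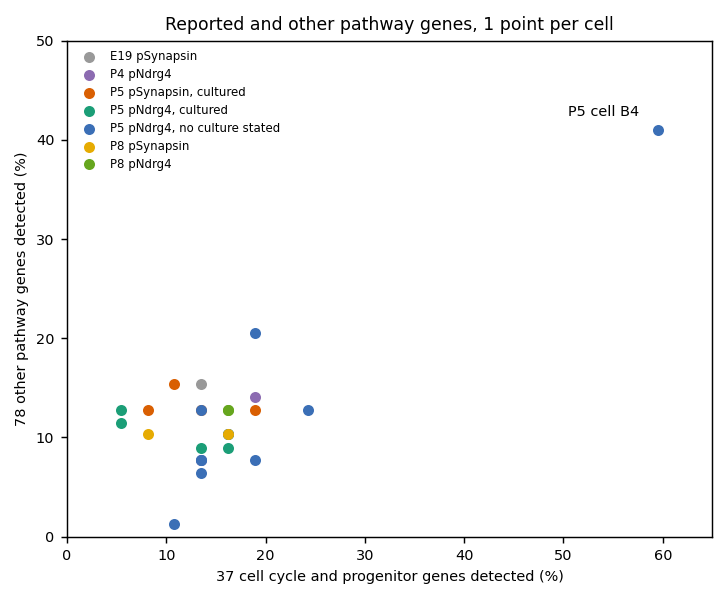
Percent of the 78 other pathway genes detected (vertical axis) against the percent of the 37 cell cycle and progenitor genes detected (horizontal axis), 1 point per cell, coloured by group. P5 cell B4 lies at 59.5% and 41.0%, and the next highest cell on the vertical axis, P5 cell B1, at 18.9% and 20.5%.

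Markers of retinal cell types were read in the same cells. Over the 26 cells, 3 to 8 of 9 amacrine markers were detected, and none of 5 microglial markers. P5 cell B4 had 5 of 9 amacrine markers: Pax6 (16603), the transporters Slc32a1 (2477) and Slc6a9 (2877), Gad2 (2127) and Snap25 (4017), while Tfap2a, Tfap2b, Gad1 and Stx1a were not detected. Their summed signal, 28202, was the lowest of its group. P5 cell B4 also had 5 of 11 measured rod markers, beside 19.3% of all genes, with a sum of 61388 where its group ran from 384 to 61388. Among them was Nrl (21478), the transcription factor that sets rod fate. Not detected were Pde6b, Gnat1, Gngt1, Rcvrn, Cnga1 and Prph2. P5 cell B3 of the same group also had 5 of 11, with a sum of 48340. P5 cell B4 had 6 of 10 Müller glia markers, with a sum of 65667 where its group ran from 5685 to 65667. Among them were Vim (20156), Dkk3 (19547) and Rlbp1 (11844), genes that progenitors can also express. Not detected were Slc1a3, Aqp4, Apoe and Kcnj10. Other cells of the group came close, with sums of 61451 in P5 cell B3, 57915 in P5 cell B1 and 55292 in P5 cell A6. P5 cell A6 also had 6 of 10. P5 cell B4 had 2 of 7 bipolar markers, Otx2 (12231) and Prkca (3042), 1 of 6 ganglion cell markers and 1 of 5 cone markers. None of 4 horizontal, 4 endothelial and 3 astrocyte markers was detected in it. The part of these markers in the cell cycle count was not tested.

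Cultured P5 pNdrg4 cells were set against those with no culture stated, the pair of groups alike in age and reporter. Of the 37 genes, 1 was higher by at least 1 log2 unit in the cultured cells (beside 12.8% of all genes) and 11 were lower, 29.7% of them (beside 4.27% of all genes). The median difference was -0.28 over the 37 genes and 0.00 over all genes. Without P5 cell B4 the counts were 1 higher and 7 lower (18.9%, beside 13.6% and 4.16% of all genes), and the median was -0.15. S phase genes accounted for 6 of the 11 lower genes, and for 2 of the 7 without P5 cell B4, so that cell set much of the S phase difference.

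Gadd45g averaged 7.64 ± 0.00 on the log2 scale in the 5 cultured cells and 11.45 ± 2.74 in the 10 with no culture stated (SD over cells), with 0 of 5 and 7 of 10 detected. Its difference was -3.81, and -3.82 without P5 cell B4. All 5 cultured cells lay below the floor of 200, so the size follows the floor, and it was -5.01 with a floor of 50 and -2.89 with a floor of 500. The lowest of the 10 lay at the floor with the cultured cells, so the groups overlapped.

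The next lowest differences were Ccnd1 at -2.07, Mcm7 at -1.81, Rb1 at -1.56 and Top2a at -1.50, and without P5 cell B4 these were -1.62, -1.54, -1.40 and -1.09. With group medians Ccnd1 and Rb1 showed no difference (0.00 each) and Top2a one of -0.36, and with the median over its probe sets Top2a was also at 0.00, while Mcm7 was -2.98 and -1.54. The other 6 lower genes were Rrm1 (-1.40), Ube2c (-1.35), Mcm2 (-1.20), Rrm2 (-1.06), Mcm6 (-1.06) and Mcm4 (-1.04). Rrm1 and Ube2c were still lower by more than 1 without P5 cell B4 (-1.09 and -1.37), whereas Mcm2, Rrm2, Mcm6 and Mcm4 were not (-0.82, -0.51, -0.66 and -0.77). The gene that was higher was Cdkn1b, at 12.56 ± 0.32 in the cultured cells and 10.02 ± 2.17 in the cells with no culture stated, a difference of 2.54 (2.63 without P5 cell B4). Its spread was narrow in the cultured cells and wide in the others, and the groups overlapped. The differences of Gadd45g and Cdkn1b were larger than the SD over the 10 cells (2.74 and 2.17), whereas those of Ccnd1 and Mcm7 were smaller than theirs (3.12 and 2.82).

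With group medians in place of means, 2 of the 37 genes were lower by at least 1, and the share of all genes by group medians was not counted. In the further pathway lists, 0 of 28 G2 and mitosis genes were higher and 3 lower, and 0 of 17 progenitor genes were higher and 4 lower, against 3 higher and 2 lower of 19 replication genes and 1 of each among 14 inhibitors, beside 12.8% higher and 4.27% lower of all genes. Without P5 cell B4 the lower counts were 1 of 28 G2 and mitosis, 4 of 17 progenitor, 0 of 19 replication and 0 of 14 inhibitor genes, and the higher counts 0, 0, 4 and 1. Rod marker sums were 1028 to 5962 in the cultured cells and 384 to 61388 in the cells with no culture stated, and Müller glia sums 679 to 24076 and 5685 to 65667. Amacrine sums were 28508 to 135134 in the cultured cells and 28202 to 152701 in the others. The part of these markers in the differences was not tested.

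**Figure D5:**
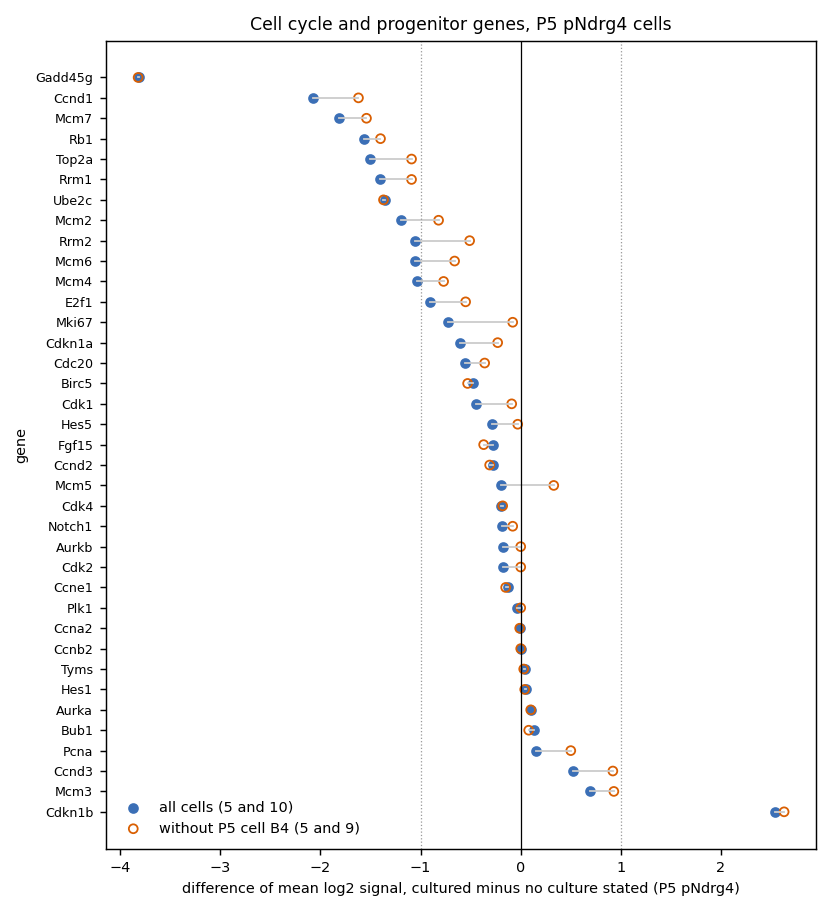
Difference of group means of log2 signal, cultured minus no culture stated, at P5 with the pNdrg4 reporter, for each of the 37 genes with all cells (filled) and without P5 cell B4 (open); dotted lines mark -1 and 1. Gadd45g is lowest at -3.81 and Cdkn1b highest at 2.54.

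The share of these genes that differed between the reporters lay near that of all genes at P5 and at P8. At P5, in cultured retina, 3 of the 37 genes (8.11%) were higher by at least 1 log2 unit in pSynapsin cells than in pNdrg4 cells. This stood beside 10.3% of all genes. Another 2 (5.41%) were lower, beside 8.81% of all genes. The median was 0.00 over the 37 and over all genes. Cdkn1a averaged 10.43 ± 1.98 in 4 pSynapsin cells and 7.73 ± 0.14 in 5 pNdrg4 cells, a difference of 2.69, with 3 of 4 and 0 of 5 detected. Rrm1 averaged 10.71 ± 2.19 in pSynapsin cells and 8.05 ± 0.92 in pNdrg4 cells, a difference of 2.66, again with 3 of 4 and 0 of 5 detected. The Rrm1 difference was 0.40 with the median over its probe sets. Rb1 was higher by 1.91, and by 1.25 without P5 cell E2. Ccnd3 differed by -1.09, but by -0.65 without P5 cell D6 and by 0.00 with group medians or the median over probe sets. Cdkn1b averaged 10.18 ± 2.94 in pSynapsin cells and 12.56 ± 0.32 in pNdrg4 cells, a difference of -2.38. In each of these genes the groups overlapped. Rod markers were also more numerous in the pSynapsin cells, with 1 to 7 of 11 detected and sums of 7588 to 70436, against 0 to 1 and 1028 to 5962 in the pNdrg4 cells, and amacrine sums were 38811 to 64050 and 28508 to 135134. The part of these markers in the differences was not tested.

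At P8, with 2 cells in each group, 4 genes (10.8%) were higher in pSynapsin cells than in pNdrg4 cells, beside 13.0% of all genes. Another 6 (16.2%) were lower, beside 12.8% of all genes. Mcm7 read 456 and 19.2 in the pSynapsin cells and 4959 and 3992 in the pNdrg4 cells, a difference of -3.88. Rb1 read 2421 and 5868 in the pSynapsin cells and 1593 and 147 in the pNdrg4 cells, a difference of 2.74, and 1.24 without P8 pNdrg4 cell A2. These genes did not overlap between the groups, nor did Cdk4 (2.72, but 0.81 without P8 pNdrg4 cell A1). The share of all genes without overlap was not counted. With 2 cells a group there is no measure of spread worth setting beside these differences. The other differences of at least 1 were Ccnd1 (2.27) and Birc5 (1.97), and below 0, Mcm4 (-2.14), Ccna2 (-2.13), Ccnd3 (-1.40), Pcna (-1.30) and Cdkn1b (-1.24). Several rested on 1 cell. Without P8 pNdrg4 cell A1, Ccna2 became 0.27, Ccnd3 0.53 and Mcm4 0.00, and without P8 pNdrg4 cell A2, Pcna became 0.86. Without P8 pSynapsin cell B4, Ccnd1 became 0.00, and without P8 pSynapsin cell B3, Birc5 became 0.00.

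Between P8 and P5 in cultured cells, averaged over the reporters, 4 genes were higher by at least 1 (beside 9.27% of all genes) and 3 were lower (beside 6.0%), with a median of -0.04 over the 37 and 0.00 over all genes. Rb1 was higher by 1.72 (2.14 in pSynapsin cells and 1.31 in pNdrg4 cells), and by 0.97 without P8 pNdrg4 cell A1. Ccna2 (1.17), Mcm4 (1.07) and Ccnd1 (1.04) were also higher, each on the signal of 1 P8 cell. Cdk4 differed by -1.84, but by -0.10 in pSynapsin cells and -3.58 in pNdrg4 cells, and by -0.89 without P8 pNdrg4 cell A1. Pcna differed by -1.66 in pSynapsin cells and -1.15 in pNdrg4 cells, a mean of -1.40, which was -0.32 without P8 pNdrg4 cell A1. Mcm3 differed by -1.07 and -0.99 in the same order, a mean of -1.03, which was -0.50 without P5 cell E3 and 0.00 with group medians. Some genes ran in opposite directions in the 2 reporters, and the difference between the reporters was not tested: Mcm7 differed by -2.25 in pSynapsin cells and 2.01 in pNdrg4 cells, Rrm1 by -1.82 and 1.30, and Cdkn1a by -1.21 and 2.23. The P8 retinas were cultured for 8 days and the P5 retinas for 5, so age and days in culture cannot be told apart. Rod markers also moved with age: 3 to 8 of 11 were detected in the P8 cells and 0 to 7 in the cultured P5 cells, with sums of 8981 to 99562 and 1028 to 70436, and their part was not tested.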

How the data were processed

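Single amacrine cells were profiled on 26 one-colour arrays, and 45101 probe sets were read per cell. The deposited values are linear signal intensity, 1 per probe set; per the submitters' processing notes the authors used MAS5 (version not stated there). Each array had a 2% trimmed mean of 500, so the values were already scaled between arrays, and no further normalization was applied. The number of molecules behind a signal is unknown, so no counting interval is given, and the number of cells limits the precision. The 64 control probe sets were left out; 34958 probe sets had 1 gene symbol, 932 several and 9211 none in the platform annotation, and only those with 1 were used, 34754 of which matched a current RefSeq symbol. Platform annotation can be old. Probe sets of a gene can disagree.

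Differences are of group means of log2 signal over cells. With no animal or culture named, no test was made. A group difference of at least 1 log2 unit was counted. Members detected in 3 or more cells are named with values, those in 1 or 2 with cell and signal, and the 5 highest and 5 lowest in each comparison are named. The genes, the pathway lists and the marker lists were chosen with earlier results of these data known. Alternatives changed the probe set rule, scaling, floor, detection threshold, group summary, genes kept and cells kept; leaving out P5 cell B4 from the counts of detected genes was chosen after seeing the data. The step that takes the culture difference was tested on signals shuffled across cells, with raised values planted in the cultured P5 pNdrg4 cells. The counting steps were not tested in this way. Promoter motifs were counted on both strands in RefSeq windows of build GRCm38.p6. Software was Python 3.11.15 with pandas 2.3.3 and numpy 2.4.6; figures used matplotlib 3.10.9. Protein sequences were not analysed here.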

Additional observations from a re-analysis of the deposited data

Results flagged for a closer look

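Values far from the other cells of their own group were looked for in 47 sets of 4 to 10 cells, and 18 were found. A gene entered for a group only where at least 1 cell had it detected. Many of the other cells lay at the floor of 200, so a single high cell is easily marked and no chance rate is given. P5 cell B4 gave 7 of them, against the other 9 pNdrg4 cells with no culture stated: its 22 detected genes of the set, and its signals of Mki67 (19686), Mcm5 (9636), Ccnd3 (3813), Cdk1 (3199), Hes5 (1293) and Mcm3 (1102). In the same group, P5 cell B1 stood apart for Fgf15 (18427) and Birc5 (5445), P5 cell B2 for Mcm4 (24262), P5 cell B3 for Bub1 (6243), and P5 cell A8 for a low Cdk4 (18.1). Among the cultured P5 pNdrg4 cells, C1 stood apart for Mcm3 (6262) and Bub1 (1769), D6 for Mcm6 (5413) and D3 for Fgf15 (1167). Among the P5 pSynapsin cells, E3 stood apart for Mcm3 (3903) and Mcm6 (1369). Effects of reporter at P5 and P8, and of age in each reporter, were also set side by side in 74 pairs. In 0 of them did every cell of one contrast lie above its counterpart group and every cell of the other lie below, although group means ran in opposite directions for some genes, such as Mcm7, Rrm1 and Cdkn1a with age. No reporter pair could have been marked, because every gene of the set overlapped between the reporters at P5. The 0 therefore does not show that the effects were alike.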

How the results depend on the processing

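Of 451 values for single genes whose difference reached 1 log2 unit, 443 moved by less than the SD over cells, which is wide, 2 moved by more and 6 reversed. Of the 451, 45 were below 1 log2 unit in size and 12 of those were 0. Of 244 values for counts and medians, 225 stayed within 1.5 times or the spread and 19 did not. P5 cell B4 kept the highest count under each probe set rule, scaling and detection threshold tried, from 13 (median over probe sets, next cell 7) to 24 (detection at 500, next cell 9). The count of genes lower in cultured cells was 7 with the median over probe sets, 5 with a floor of 500 and 2 with group medians, and 7 to 12 leaving out single cells, with the median at -0.38 to -0.15. At P5 the count lower in pSynapsin cells was 1 with the median over probe sets, 75th percentile scaling, a floor of 500 or group medians, 6 with a floor of 50, and 1 to 4 leaving out single cells. Between P8 and P5 the count of higher genes was 1 with the median over probe sets or a floor of 500, 7 with a floor of 50, and 2 to 5 leaving out single cells. The count of lower genes was 1 with a floor of 500 and 1 to 4 leaving out single cells. Under these changed settings the share of all genes was not counted, except without P5 cell B4 in the culture difference. Leaving out single cells, the reporter difference at P8 reversed for Ccna2 (-4.53 to 0.27) and Ccnd3 (-3.32 to 0.53), both without pNdrg4 cell A1, and for Pcna (-3.47 to 0.86) without pNdrg4 cell A2. The age difference reversed for Ccnd1 (-0.01 with the median over probe sets, and -0.09 to 2.17 leaving out single cells, lowest without P8 pSynapsin cell B4) and for Ccna2 (-0.03 to 2.37, lowest without P8 pNdrg4 cell A1). Floors change only values near them, and group medians ignore a single high cell; for the other changes the cause was not tested. No paired analysis was possible because replicate numbers only name cells and pair none across groups.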
